A study of Mus musculus with 30 samples.

Results

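The nuclear genes for subunits of the oxidative phosphorylation complexes were followed across 5 groups of sorted mouse spleen cells. Members were the protein-coding genes of the count table whose mouse symbol begins with Ndufa, Ndufb, Ndufc, Ndufs or Ndufv and a digit, is Sdha, Sdhb, Sdhc or Sdhd, or begins with Uqcr, Atp5 or Cox and a digit from 4 to 8, with a summed count of at least 100 over the 30 libraries. Of 37991 genes in the table, 94 carried such a symbol, 84 of these were protein coding, and 77 reached the minimum. By symbol they fell into 36 genes of complex I, 4 of complex II, 8 of complex III, 13 of complex IV and 16 of complex V. The 7 protein-coding genes under the minimum were Ndufa4l2 (3 counts in all), Cox6a2 (24), Cox7a1 (99), Atp5g2 (13) and Cox7b2, Cox8b and Cox8c (0 each). All 77 members passed the filter on low counts and were among the 11030 genes tested.

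The series compared inflammatory hemophagocytes (iHPC), Ly6C-high monocytes (Mono) and red pulp macrophages (RPM) sorted from spleens of female mice aged 9.4 to 15.7 weeks. Wild-type (WT) B6 mice and TLR7.1 mice, which overexpress the RNA sensor Toll-like receptor 7 according to the series title, gave Mono and RPM from 6 mice each, and the 6 TLR7.1 mice also gave iHPC. There were thus 5 groups of 6 libraries from 12 mice, and no WT iHPC group. Every sort gate took live cells with CD45.2 and without Ly6G or SiglecF. Mono were in addition positive for Ly6C, Ccr2 and CD11b. RPM lacked Ly6C and were VCAM high, F4/80 positive, CD31 low and CD11b negative or intermediate, while iHPC lacked Ly6C and were CD31 high, CD11b positive, VCAM low and F4/80 low. Each library came from 500 cells, amplified as full-length cDNA (SMART-Seq v4) and tagged with Nextera XT. The labels do not give the promoter behind the TLR7.1 allele or the cells that carry it, and libraries of 1 mouse come from the same animal.

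Oxidative phosphorylation takes place at the inner mitochondrial membrane. Complex I oxidises NADH and complex II, which is also succinate dehydrogenase of the citric acid cycle, oxidises succinate. Both pass electrons to ubiquinone, complex III passes them on to cytochrome c, and complex IV hands them to oxygen. The proton gradient that complexes I, III and IV build drives complex V, the ATP synthase. Most subunits are nuclear genes whose proteins are imported, a few are encoded in mitochondrial DNA, and complex II is encoded by nuclear genes alone. Red pulp macrophages clear aged red cells and recycle their iron, and succinate oxidation is a step at which macrophage metabolism is known to be regulated.

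Nuclear genes of the same complex need not be alike in sequence or in level, and the c subunit of ATP synthase shows this. Atp5g1, Atp5g2 and Atp5g3 encode the membrane ring of the enzyme. Their last 120 coding bases, which end with the stop codon, are printed from the GRCm38 reference transcripts, with capitals at each base that differs from Atp5g3.
Atp5g3: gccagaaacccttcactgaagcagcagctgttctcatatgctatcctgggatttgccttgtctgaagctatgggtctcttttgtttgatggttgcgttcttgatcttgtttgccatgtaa
Atp5g1: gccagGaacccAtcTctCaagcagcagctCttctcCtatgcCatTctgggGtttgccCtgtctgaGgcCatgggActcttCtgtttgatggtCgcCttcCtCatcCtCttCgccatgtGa
Atp5g2: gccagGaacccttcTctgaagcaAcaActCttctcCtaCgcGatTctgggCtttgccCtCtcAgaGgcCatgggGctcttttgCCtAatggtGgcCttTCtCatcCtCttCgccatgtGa
Atp5g1 (chromosome 11) differs from Atp5g3 (chromosome 2) at 22 of these bases, 18 of them at the last position of a codon. Atp5g2 (chromosome 15) differs at 28, with 23 at the last position, and 0 of the 39 encoded residues differ in either pair. The reads were divided very unequally among the genes. Atp5g3 held 11574 counts over all libraries, Atp5g1 held 583 and Atp5g2 held 13, so that Atp5g3 held most of the counts in every group. Of the 50-base words of Atp5g2, 87.4% also occur in another gene, mostly in the gene model Gm10175. Its reads may have been split or dropped, so its low count need not give its level.

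The promoters carried words that recur in genes of mitochondrial proteins. NRF1, the ETS protein GABP and YY1 are transcription factors known to act on many such genes, and 3 letter strings stood for their sites: CGCATGCG for NRF1, CCGGAAG for ETS proteins and AANATGGC for YY1. They were looked for on both strands from 250 bases before to 50 bases after each RefSeq start, and matches of different strings may overlap and were counted for each. A promoter was matched for 64 of the 77 members. CGCATGCG was found in 8 of them (12.5%) against 2.77% of 17492 genes with a promoter, CCGGAAG in 16 (25.0%) against 12.9%, and AANATGGC in 17 (26.6%) against 7.46%. At least 1 string was present in 34 members (53.1%) and in 20.9% of all genes. Atp5k and Ndufa8 are shown for the NRF1 string, and Sdhd and Uqcrh for the ETS string, as the 100 bases before the RefSeq start on GRCm38.p6, all from the minus strand and with the string in capitals.
Atp5k, chr5:108434400-108434499: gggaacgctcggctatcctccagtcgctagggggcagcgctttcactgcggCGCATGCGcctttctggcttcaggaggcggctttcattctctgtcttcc
Ndufa8, chr2:36049339-36049438: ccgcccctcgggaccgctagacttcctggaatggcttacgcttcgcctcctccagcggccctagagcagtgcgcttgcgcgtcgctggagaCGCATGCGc
Sdhd, chr9:50603850-50603949: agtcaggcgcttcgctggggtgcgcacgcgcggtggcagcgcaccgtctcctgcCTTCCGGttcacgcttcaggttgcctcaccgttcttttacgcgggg
Uqcrh, chr4:116075071-116075170: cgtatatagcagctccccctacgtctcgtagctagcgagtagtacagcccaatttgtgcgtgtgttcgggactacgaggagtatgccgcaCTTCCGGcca
In Sdhd and Uqcrh the ETS string reads as its reverse complement. The matches describe letters and not binding.

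Library totals ran from 95002 to 1932427 counts and differed by population. Mono libraries held 1157446 to 1932427 counts, iHPC libraries 292507 to 1420486 and RPM libraries 95002 to 1511480. Marker genes of monocytes and of red pulp macrophages followed the sort labels. The summed level of 6 monocyte genes was 4082 to 5578 normalised CPM, the reads of a gene scaled to a common library size, in Mono and at most 154 in RPM and 83.2 in iHPC. That of 7 red pulp macrophage genes was 4949 to 13820 in RPM, 1043 to 1743 in iHPC and at most 633 in Mono. The sum of 3 genes of the iHPC gate, Pecam1, Itgam and Adgre1, overlapped between iHPC and RPM. It was 1064 to 1255 CPM in iHPC, 1104 to 1595 in WT RPM, 728 to 1342 in TLR7.1 RPM and at most 826 in Mono. This sum cannot test the iHPC sort against RPM. The gates took iHPC as high or positive for the proteins of Pecam1 and Itgam but low for that of Adgre1. RPM were gated as positive for the Adgre1 protein, so opposite differences can cancel in the sum. Genes of basophils and mast cells summed to 2485 to 4516 CPM in 5 iHPC libraries and 0.93 in the iHPC library of mouse 24261, against at most 21.4 in any other library. Erythroid genes summed to 462 to 5556 CPM in RPM, 960 to 3258 in iHPC and at most 333 in Mono. Plasma cell genes reached a median of 2825 CPM in TLR7.1 RPM and 335 to 745 in the other groups. Of the B cell genes the sums had medians of 504 and 759 CPM in WT and TLR7.1 RPM, 471 in iHPC, and 280.0 and 108 in WT and TLR7.1 Mono. T and NK cell genes had medians of 82.9 and 278 in RPM, 65.7 in iHPC and 4.86 and 19.3 in Mono, in the same order. Neutrophil genes had 266 in iHPC, 214 in TLR7.1 Mono and 25.3 in TLR7.1 RPM, against 4.27 in WT Mono and 3.44 in WT RPM. Platelet genes had 199 in iHPC, 35.6 and 85.8 in RPM and 2.65 and 2.72 in Mono. These RNAs moved with the groups, and their part in the results that follow was not tested. In sorted bulk RNA, fewer cells of a type and less RNA per cell cannot be told apart.

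In CPM, which are scaled to the library size, the 77 members together were lowest in Mono, highest in RPM and between them in iHPC. WT Mono held a summed level of 14160 ± 1206 CPM (SD, n = 6), with a lowest library of 12622, a median of 14211 and a highest of 15615. TLR7.1 Mono held 15680 ± 1183 (14629, 15506 and 17873), and iHPC held 17039 ± 2639 (14320, 16672 and 21968). WT RPM held 20858 ± 3170 (15615, 21268 and 24857), and TLR7.1 RPM held 23097 ± 4263 (19275, 21715 and 30089). All 6 TLR7.1 RPM libraries lay above all 6 TLR7.1 Mono libraries, whereas iHPC overlapped both. Of the WT RPM libraries, that of mouse 24117, the deepest RPM library, lay within the WT Mono range, and the other 5 lay above it. The level moved with depth inside the groups. The library with the lowest total had the highest sum in all 5 groups.

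**Figure D1:**
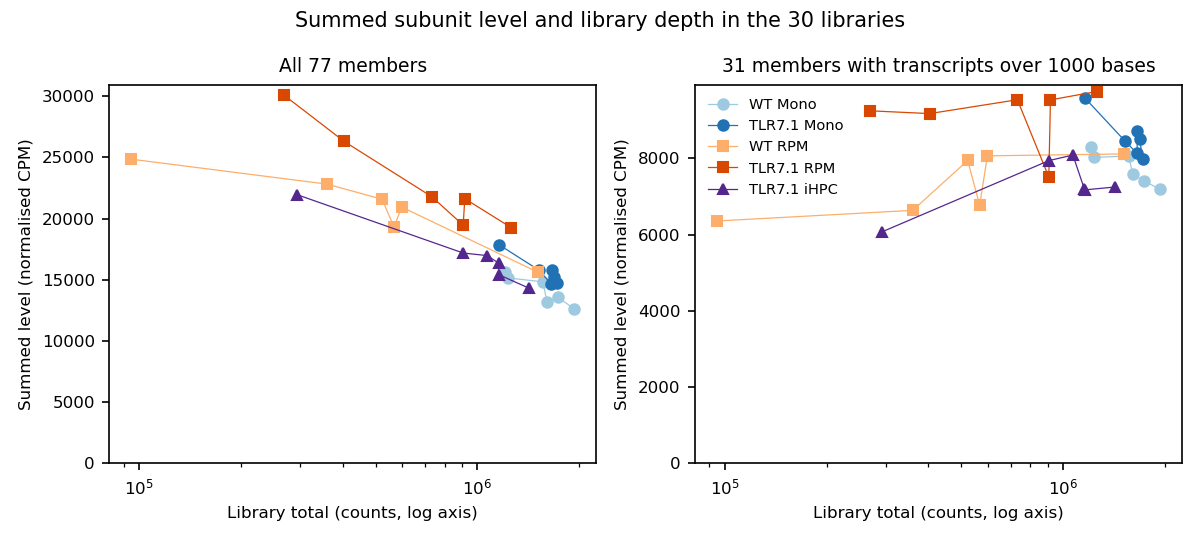
Summed level of the members in normalised CPM against the library total, 1 point per library and coloured by group, for all 77 members (left) and for the 31 members with transcripts over 1000 bases (right). On the left the sums run from 12622 to 30089 CPM and the shallowest library of each group lies highest.

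The slope with depth differed by transcript length. Members had a median transcript length of 838 bases (371 to 4715), against 2858 for all genes tested. With the library total added to the fit as a term, the 46 members of at most 1000 bases had a median slope of -0.42 log2 units per doubling of the total, and 37 of them were lower in deeper libraries and 0 higher at an adjusted p under 0.05. Among the 31 longer members the median slope was 0.09, with 11 higher and 6 lower. Over all genes tested, 12.6% were higher and 7.9% were lower per doubling, and 43 of the 77 members (55.8%) were lower. In protein-coding genes of at most 600 bases that are not members the median slope was -0.26, beside -0.44 for members of that length. From 601 to 1000 bases it was 0.05 over 539 other genes, with 11.9% higher and 16.0% lower. The 27 members of 601 to 1000 bases had a median of -0.39, with 77.8% lower. The most negative member was Ndufa2, at -0.66 per doubling, and the most positive were Ndufa9 (0.69), Uqcrc2 (0.61), Ndufv1 (0.56) and Uqcrc1 (0.50). In mouse 24380 Ndufa2 had 222 raw counts in the RPM library and 243 in the Mono library, at totals of 268275 and 1157446. Counts and medians below come from the fit with groups alone unless the depth term is named, which means the library total as a term of the fit, chosen after the data were seen.

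RPM against Mono asks how a tissue macrophage differs from a blood-derived monocyte of the same spleens. In WT mice 54 members were higher in RPM and 7 lower (edgeR quasi-likelihood test, adjusted p under 0.05 by Benjamini-Hochberg over all genes tested), where 46.2% of all genes were called, 23.7% as higher and 22.5% as lower. In TLR7.1 mice 53 were higher and 3 lower, where 46.6% of all genes were called, 23.9% as higher and 22.6% as lower. The members had a median log2 fold change of 0.90 for WT and 0.83 for TLR7.1 mice, beside -0.02 and -0.03 for all genes tested. The pair of genotypes shares no library but comes from 1 fit, and in every mouse the RPM library was shallower than the Mono library. In this pair 51 genes were higher in both, which is 94.4% of the WT and 96.2% of the TLR7.1 list. The like overlap over all genes is not given here. The 3 genes lower in both, Ndufv1, Uqcrc1 and Uqcrc2, were 42.9% and 100% of the lists. The 6 RPM libraries lay wholly above the 6 Mono libraries for 26 members in WT and 46 in TLR7.1 mice, and wholly below for 2 in each. Over all genes tested, 11.1% lay wholly above and 15% wholly below in WT, and 12.6% and 14.6% in TLR7.1 mice.

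**Figure D2:**
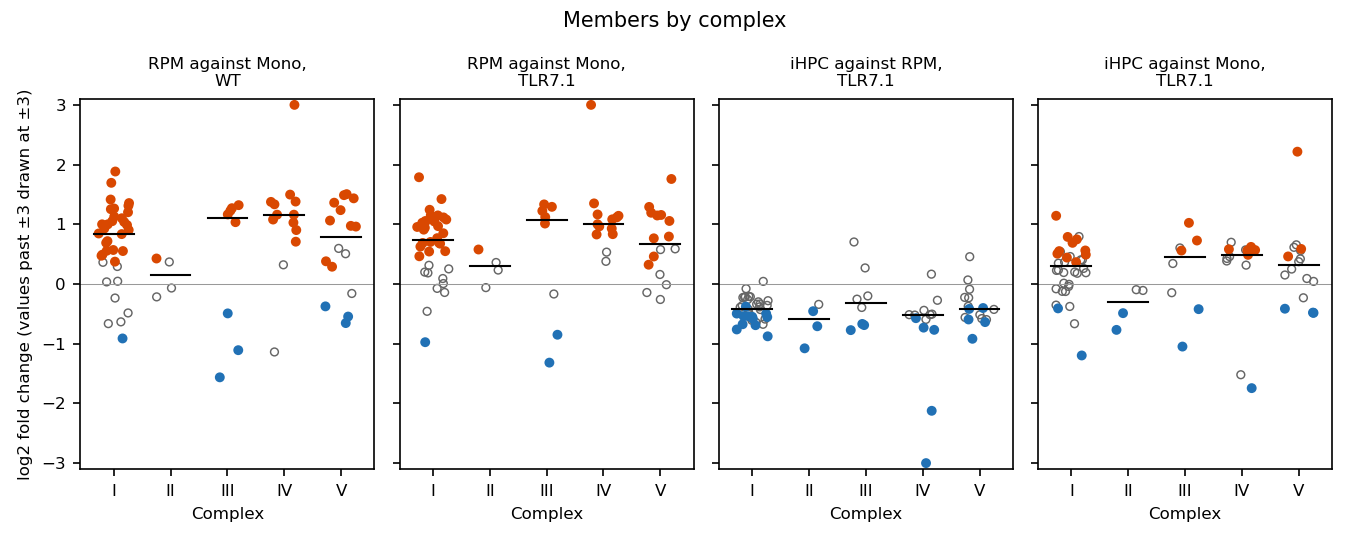
Log2 fold change of each member by complex in the 4 comparisons between populations, with called genes coloured, the median of each complex as a line and values beyond 3 drawn at 3. In RPM against Mono the medians of complexes I, III, IV and V lie between 0.68 and 1.16, and in iHPC against RPM all 5 medians lie below 0.

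With groups alone, few genes of the enzyme cores were called higher in RPM. A list of 17 core subunits of complexes I, II, III and V was set by function. Not every gene on it carries a cofactor or a catalytic site. The list had 3 higher and 5 lower genes in WT RPM (median log2 fold change -0.16) and 3 higher and 1 lower in TLR7.1 RPM (0.09). The other 60 members had 51 higher and 2 lower (1.03) in WT and 50 higher and 2 lower (0.97) in TLR7.1 mice. Core subunits are long transcripts for the most part. By length, the 46 members of at most 1000 bases had 43 higher and 0 lower in WT (median 1.09) and 41 higher and 0 lower in TLR7.1 mice (1.03), and the 31 longer ones had 11 higher and 7 lower (0.05) and 12 higher and 3 lower (0.20). Other protein-coding genes showed the same order by length up to 2500 bases, but not beyond. For WT and TLR7.1 mice their medians were 0.83 and 0.88 over 119 genes of at most 600 bases, and -0.40 and -0.35 over 2418 genes of 1501 to 2500 bases. In between, 539 genes of 601 to 1000 bases had 0.39 and 0.47, where the 27 members of that length had 1.03 and 0.96. Over 4000 bases the medians of 2925 other genes were 0.23 and 0.09. Much of this contrast between members went under the depth term. The core list then had 2 higher and 0 lower genes in WT (median 0.20) and 5 and 0 in TLR7.1 mice (0.23), and the other 60 members had 23 and 1 (0.36) and 36 and 1 (0.45). The medians of the members of at most 1000 bases were 0.38 and 0.45 under that term, and those of the longer ones 0.25 and 0.35.

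**Figure D3:**
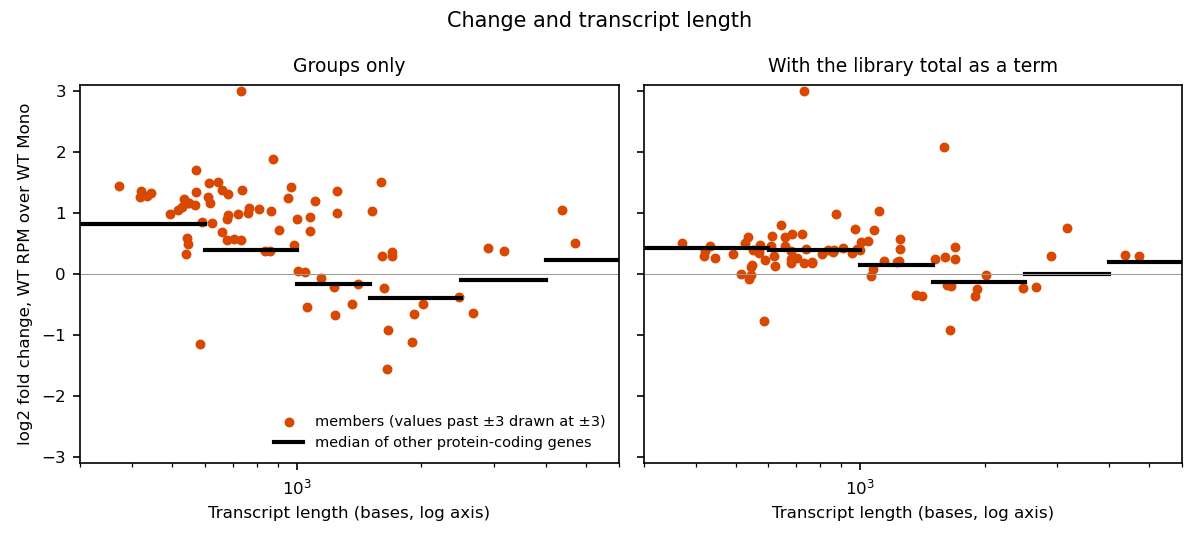
Log2 fold change of each member in WT RPM against WT Mono by transcript length in bases (log axis), fitted with groups alone and with the library total as a term, with black lines for medians of other protein-coding genes in bins of length. With groups alone the medians of the other genes fall from 0.83 for transcripts of at most 600 bases to -0.40 for those of 1501 to 2500 bases. For those over 4000 bases the median is 0.23. The members of at most 1000 bases lie mostly above 0.

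With the library total as a term, 25 members were higher in WT RPM and 1 lower, where 17.9% of all genes were higher and 14.5% lower. Of these 26 members, 25 were also called with groups alone. In TLR7.1 mice 41 were higher and 1 lower under that term, where 20.8% were higher and 16.4% lower. The gene that stayed lower in both was Uqcrc1. RPM and Mono totals overlapped in few mice, so depth and population cannot be told apart for the group as a whole, but single mice allow a comparison at like depth. In WT mouse 24117 the RPM library held 1511480 counts and the Mono library 1561253. There the median difference of the 77 members was 0.08 log2 units, with 53 above 0 and 24 below. In TLR7.1 mouse 24107 (1257240 against 1658294 counts) it was 0.38, with 71 above 0 and 6 below. The other 10 mice, whose RPM libraries held at most 0.549 of the counts of their Mono libraries, had medians from 0.64 to 1.19. Within collection days the medians were 0.35, 0.97 and 1.15 in WT and 0.74, 0.75 and 0.94 in TLR7.1 mice on 13, 21 and 26 December, where WT had 1 mouse on 21 December. Among libraries of 900000 to 1300000 counts, 3 TLR7.1 RPM libraries and 1 TLR7.1 Mono library gave a median of 0.38 with 3 members higher and 1 lower.

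**Figure D4:**
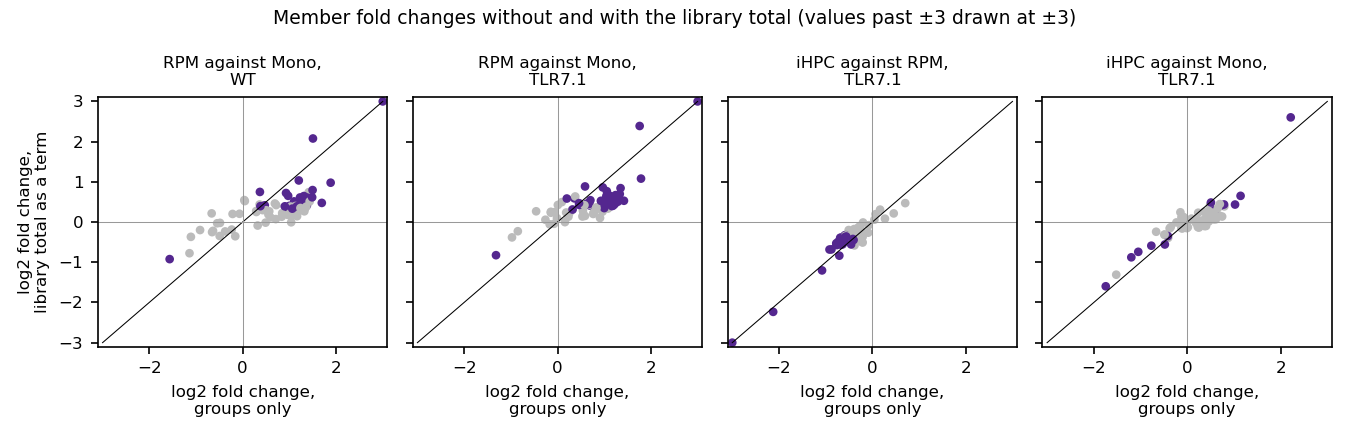
Log2 fold change of each member with groups alone (horizontal) against the value with the library total as a term (vertical), with members called under that term in purple. Cox5a moves from 1.50 to 0.79 in WT RPM against Mono, and Sdhc from -1.08 to -1.20 in iHPC against RPM.

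In complex I, 27 of 36 members were higher and 1 lower in WT RPM, with a median log2 fold change of 0.84, and 26 were higher and 1 lower in TLR7.1 RPM (0.74). In the fit with the depth term 11 and 18 were higher (medians 0.37 and 0.44) and none lower. Ndufa5, an accessory subunit of the arm that binds NADH, had the largest rise. Its WT Mono libraries held 55.7 to 79.4 CPM (median 73.2) and its WT RPM libraries 132.5 to 404.5 (245.5), and in TLR7.1 mice Mono held 72.1 to 93.2 (79.3) and RPM 181.4 to 482.4 (229.1). No RPM library overlapped a Mono library. The log2 fold change was 1.88 (SE 0.27, adjusted p = 5e-07) in WT and 1.79 (SE 0.26, adjusted p = 8.7e-07) in TLR7.1 mice, and 0.98 and 1.08 with the library total as a term, both called. RPM exceeded Mono in 12 of 12 mice. Ndufa2, a small accessory subunit, rose by 1.69 (SE 0.29) and 1.42 (SE 0.29), and by 0.48 and 0.53 under the depth term.

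Ndufv1, the flavoprotein that takes electrons from NADH, went the other way. Mono held 175.9 to 224.8 CPM (median 210.5) in WT and 186.5 to 275.6 (245.5) in TLR7.1 mice. RPM held 21.4 to 178.8 (85.2) and 23.4 to 263.5 (102.0), so that the WT and TLR7.1 groups each overlapped in their upper RPM libraries. It fell by 0.91 (SE 0.36, adjusted p = 0.037) in WT and by 0.97 (SE 0.35, adjusted p = 0.023) in TLR7.1 RPM. The values under the depth term were -0.20 and -0.38, neither called, and the WT call was also lost on leaving out mouse 24214, 24323, 24415 or 24416 and the TLR7.1 call on leaving out mouse 24068, 24261 or 24304. Of the other core subunits, Ndufs7 rose in WT alone by 0.47 (SE 0.14, adjusted p = 0.0049) and Ndufv2, an iron-sulfur subunit next to Ndufv1, in TLR7.1 mice alone by 0.46 (SE 0.14, adjusted p = 0.007). The difference between genotypes was not called for either. Ndufs1, Ndufs3 and Ndufs8, subunits of the same core, had values from -0.63 to 0.20 and were not called.

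In complex II, whose 4 genes make the whole enzyme, 1 gene was higher in RPM of each genotype and none lower. Sdhc, which anchors the enzyme in the membrane with Sdhd, held 177.6 to 222.3 CPM (median 188.6) in WT Mono and 151.3 to 360.5 (222.0) in WT RPM, which overlapped. In TLR7.1 mice Mono held 192.0 to 224.1 (212.7) and RPM 248.8 to 393.8 (302.5), with no overlap, and Sdhc rose by 0.59 (SE 0.18, adjusted p = 0.0075). Under the depth term the values for WT and TLR7.1 mice were 0.75 and 0.89, both called. Sdha, the subunit that binds succinate, rose in WT RPM by 0.43 (SE 0.15, adjusted p = 0.017), a call lost under the depth term and on leaving out mouse 24415. Sdhb, which carries the iron-sulfur clusters, and Sdhd had values from -0.22 to 0.36 and were not called.

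Complex III held the member with the largest fall in each genotype, Uqcrc1, and a set of rises. The core proteins Uqcrc1 and Uqcrc2 form its matrix side. Uqcrc1 (ENSMUSG00000025651, chromosome 9) had 524.0 to 627.6 CPM (median 565.0) in WT Mono and 109.8 to 353.2 (178.9) in WT RPM, and 572.9 to 756.1 (621.1) and 87.7 to 400.0 (249.1) in TLR7.1 mice. All Mono libraries lay above all RPM libraries in both genotypes. The log2 fold change was -1.56 (SE 0.27, adjusted p = 1.7e-05) for WT and -1.32 (SE 0.26, adjusted p = 0.00011) for TLR7.1 mice, and the values under the depth term, -0.92 and -0.82, were called. RPM lay below Mono in 12 of 12 mice, with differences from -0.65 to -3.09. In WT mouse 24117, with like totals, the RPM library held 353.2 CPM and the Mono library 573.5.

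Uqcrc2 fell by 1.11 (SE 0.29, adjusted p = 0.0019) in WT and by 0.85 (SE 0.28, adjusted p = 0.012) in TLR7.1 RPM, and was not called under the depth term (-0.37 and -0.23). The TLR7.1 call was lost on leaving out mouse 24304. The Rieske iron-sulfur protein Uqcrfs1 fell by 0.49 (SE 0.17, adjusted p = 0.015) in WT RPM, a call lost without mouse 24416 and under the depth term, and had -0.17 in TLR7.1 RPM, not called. The 5 small subunits Uqcr10, Uqcr11, Uqcrb, Uqcrh and Uqcrq rose by 1.04 to 1.32 in WT and by 1.01 to 1.33 in TLR7.1 mice. Uqcr10 was the largest of them in TLR7.1 mice (1.33, SE 0.22, adjusted p = 6.8e-06), with Mono at 142.3 to 201.9 CPM (median 149.8) and RPM at 256.6 to 669.8 (333.1), which did not overlap.

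In complex IV, 11 of 13 members were higher in RPM of each genotype and none lower, and the medians were 1.16 in WT and 1.0 in TLR7.1 mice. These counts came to 6 and 8 under the depth term, with medians of 0.38 and 0.45. Cox5a, a nuclear subunit on the matrix side, had the smallest adjusted p of the complex. Mono held 87.1 to 122.0 CPM (median 109.1) in WT and 112.0 to 145.1 (124.0) in TLR7.1 mice, and RPM held 158.2 to 524.6 (294.6) and 227.9 to 478.4 (295.2). The groups did not overlap in either genotype. Cox5a rose by 1.50 (SE 0.20, adjusted p = 1.2e-07) and 1.35 (SE 0.19, adjusted p = 5.2e-07), and by 0.79 and 0.84 under the depth term, both called, and RPM exceeded Mono in 12 of 12 mice. Of its 50-base words, 32.0% also occur in the gene model Gm26631, so the division of reads between them is uncertain.

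Cox4i2 was counted almost wholly in RPM. It encodes the alternative form of subunit 4, known from lung and from cells under low oxygen, while Cox4i1 encodes the common form. Cox4i2 (ENSMUSG00000009876, chromosome 2) had 81 counts in WT RPM and 39 in TLR7.1 RPM, with a count in all 6 libraries of each group. WT Mono had 1 count, TLR7.1 Mono 2 and iHPC 0. Relative to the group totals this is a ratio of 206 between WT RPM and WT Mono (exact 95% interval 35.9 to 8222) and of 40.8 between the TLR7.1 groups (10.6 to 349), where the intervals cover counting error only. The level in TLR7.1 RPM was 17.4 times a floor of 3 counts over the whole iHPC group. This value leaves out the counting error of the TLR7.1 RPM counts. Of the 81 WT RPM counts, 66 lay in the library of mouse 24117. The fitted log2 fold change in WT was 6.00 (SE 0.96, adjusted p = 8.3e-06) and 4.85 without that mouse, both called, and in TLR7.1 mice 4.78 (SE 0.92, adjusted p = 9.6e-05). The fitted values depend on the prior count. Cox4i1 was far more abundant, at 429.7 to 1273.9 CPM in WT RPM (median 915.9) and 353.4 to 519.9 (417.8) in WT Mono. Its rises of 1.08 (SE 0.23) and 0.96 (SE 0.23) came down to 0.17 and 0.26 under the depth term and were then not called. The heart and muscle forms Cox6a2 and Cox7a1 stayed under the minimum, and Cox8b, the muscle form of subunit 8, had no count.

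In complex V, 10 of 16 members were higher in WT RPM and 3 lower, and 10 were higher and none lower in TLR7.1 RPM. A further fit with the depth term had 5 and 8 higher and none lower. The catalytic beta subunit Atp5b held 712.5 to 942.3 CPM (median 804.6) in WT Mono and 361.9 to 801.5 (481.0) in WT RPM. These overlapped in a single RPM library, and Atp5b fell by 0.65 (SE 0.19, adjusted p = 0.0055). The shaft subunit Atp5c1 fell by 0.55 (SE 0.19, adjusted p = 0.02) without overlap of the libraries, a call lost on leaving out mouse 24028, 24323 or 24416, and the alpha subunit Atp5a1 fell by 0.37 (SE 0.11, adjusted p = 0.0072). In TLR7.1 mice the same 3 genes had -0.26, -0.14 and -0.01 and were not called, and under the depth term none of the 3 was called in either genotype. The small membrane subunits rose. Atp5mpl gained 1.49 (SE 0.23, adjusted p = 3.1e-06) in WT and 1.15 (SE 0.23) in TLR7.1 RPM, and the c subunit gene Atp5g3 shown above gained 0.97 (SE 0.16, adjusted p = 1e-05) and 1.06 (SE 0.16, adjusted p = 2.4e-06), all called also under the depth term.

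**Figure D5:**
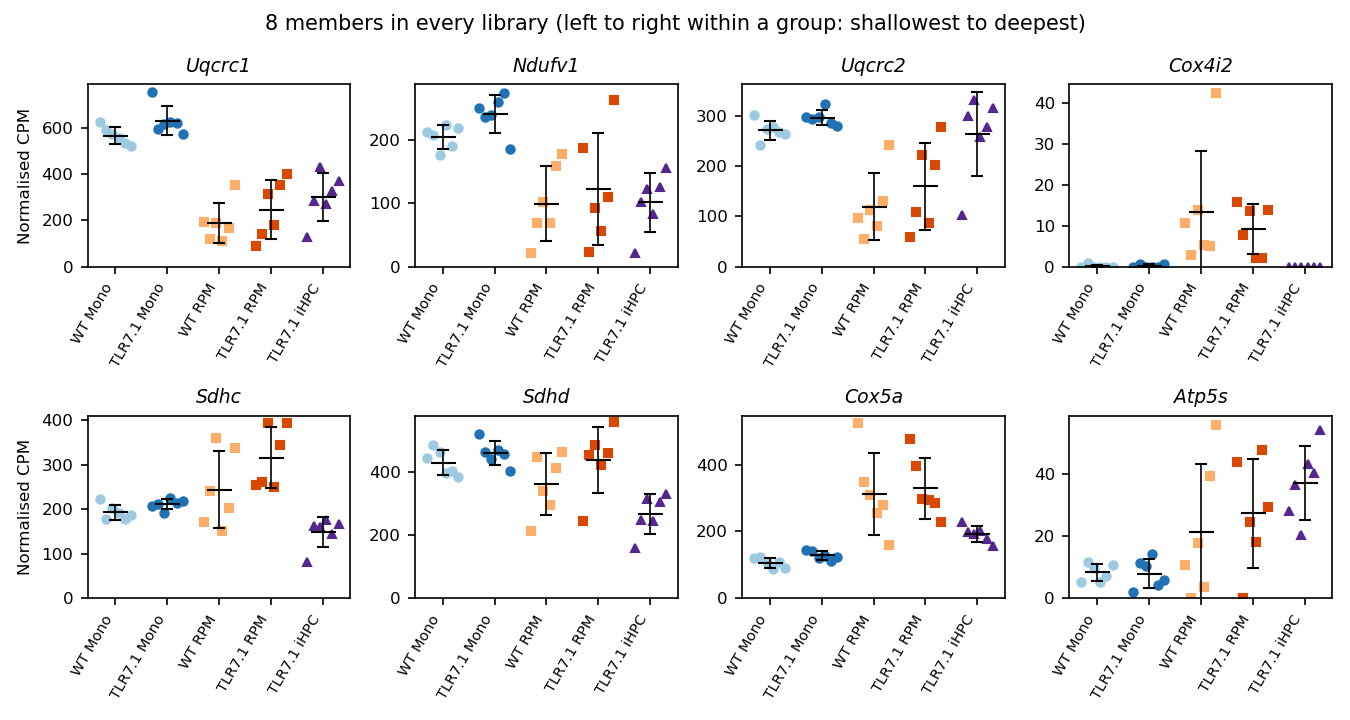
Level of 8 members in each library, in normalised CPM, by group, with libraries ordered from the lowest to the highest total within a group and the mean ± SD beside them. Uqcrc1 lies between 524.0 and 756.1 CPM in Mono and at most 430.3 elsewhere, and Sdhc is at most 174.9 CPM in iHPC.

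iHPC against RPM, both from TLR7.1 mice, compares the hemophagocytes of this model with the resident macrophages of the same spleens. No member was higher in iHPC and 28 of 77 were lower, where 27.1% of all genes were called, 13.6% as higher and 13.5% as lower. DESeq2 called 1 higher and 30 lower, and Uqcrc2 (0.70, SE 0.28, adjusted p = 0.059) was the 1 member with a higher value and an unadjusted p under 0.05. The median of the members was -0.48 and that of all genes -0.00. In complex I 12 genes were lower, in complex II 3, and in complexes III, IV and V 3, 5 and 5, and the medians were -0.43, -0.58, -0.32, -0.52 and -0.42. With the library total as a term 34 were lower, where 15.2% of all genes were lower, and by complex 14, 3, 3, 7 and 7. The 6 iHPC libraries lay wholly below the 6 RPM libraries for Ndufa12, Ndufb11, Ndufb8, Sdhc, Cox4i2, Atp5d and Atp5o, which is 7 members, where 5.09% of all genes lay wholly below. Wholly above lay 0 members and 6.07% of all genes. In mouse 24380, with like totals (292507 and 268275 counts), the median difference was -0.45 with 63 of 77 members below 0, and in mouse 24308 (1156079 and 917819) it was -0.42 with 73 below 0. In mouse 24107 (908264 and 1257240) it was -0.09, with 49 below 0. Within collection days the medians were -0.48, -0.53 and -0.46, and 4 iHPC and 3 RPM libraries of 900000 to 1300000 counts gave -0.28 with 8 members lower.

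Complex II, the succinate dehydrogenase, was low in iHPC. Its 4 genes summed to 761 to 1300 CPM in iHPC (median 1190), against 1591 to 1827 (1717) in TLR7.1 RPM and 1366 to 1590 (1431) in TLR7.1 Mono, so each iHPC library lay below all 12 other TLR7.1 libraries. The lowest value belongs to the shallow library of mouse 24380, and the next iHPC value was 1116. The WT ranges, 1239 to 1446 in Mono and 1038 to 1695 in RPM, reached below the highest iHPC library. Sdhc (ENSMUSG00000058076, chromosome 1) held 81.0 to 174.9 CPM (median 161.0) in iHPC, under every library of both TLR7.1 groups. It fell by 1.08 (log2 fold change -1.08, SE 0.18, adjusted p = 2.6e-05) against RPM and by 1.20 under the depth term, and iHPC lay below RPM in 6 of 6 mice, with differences from -0.57 to -1.64. Sdhd (ENSMUSG00000000171, chromosome 9), whose promoter stretch is printed above, held 158.5 to 330.8 (275.3) in iHPC, 243.2 to 557.3 (456.3) in TLR7.1 RPM and 402.7 to 520.9 (460.0) in TLR7.1 Mono. It fell by 0.71 (SE 0.17, adjusted p = 0.0017) and by 0.84 under the depth term, and was below RPM in 6 of 6 mice. Sdhb fell by 0.46 (SE 0.17, adjusted p = 0.046), a call lost on leaving out any of 9 of the 12 mice, and Sdha had -0.34 (SE 0.15), not called. Genes lower in iHPC outside complex II included Ndufb2 (-0.88, SE 0.26), Uqcr10 (-0.77, SE 0.22), Cox5a (-0.77, SE 0.19), Cox8a (-0.73, SE 0.20) and Atp5k (-0.92, SE 0.29). Atp5k, Ndufb2 and Uqcr10 lost the call on leaving out mouse 24068, and Atp5k also without mouse 24304.

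Cox6b2, the testis form of subunit 6b, held 0 to 9.3 CPM (median 5.2) in iHPC, 0 to 43.9 (25.0) in TLR7.1 RPM and 12.0 to 26.1 (19.2) in TLR7.1 Mono. It was lower in iHPC than in RPM, with a log2 fold change of -2.12 (SE 0.61, adjusted p = 0.0085), and than in Mono, at -1.74 (SE 0.60, adjusted p = 0.021). The call against Mono was lost on leaving out mouse 24107, 24304 or 24380. The count of lower members in iHPC against RPM moved with single mice. It was 43, with 1 gene higher, without mouse 24380, 21 without mouse 24261, 16 without mouse 24068 and 18 without mouse 24304. The iHPC library of mouse 24261, which has almost no basophil RNA, had a median difference of -0.44 from its own RPM library with 68 of 77 members below 0.

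Against Mono, iHPC had 21 members higher and 10 lower, where 38.7% of all genes were called, 19.3% as higher and 19.4% as lower, and the median was 0.37 beside 0.00 for all genes. The share of members called was thus close to the background. Complex I had 10 higher and 2 lower, complex III 3 and 2, complex IV 5 and 1 and complex V 3 and 3, while complex II had 0 higher and 2 lower. The 17 core subunits had 1 higher and 8 lower (median -0.35), and the other 60 members 20 higher and 2 lower (0.42). With the library total as a term 7 were higher and 6 lower, where 18.1% and 16.5% of all genes were, and the core list had 1 higher and 4 lower (-0.16) and the other members 6 and 2 (0.10). Without mouse 24308 the counts were 6 higher and 6 lower, without mouse 24261 6 and 8, without mouse 24380 13 and 5, and without mouse 24107 13 and 6. iHPC lay wholly above Mono for Ndufa12, Ndufa5, Ndufa6, Ndufc2, Ndufv2, Cox5a, Atp5g3 and Atp5s, and wholly below for Ndufa9, Ndufs1, Ndufv1, Sdhc, Sdhd, Uqcrc1, Uqcrfs1, Cox6b2, Atp5a1 and Atp5d. These 8 and 10 members stand beside 14.2% of all genes wholly above and 17.8% wholly below.

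Members with the same call under the depth term were Ndufa5, Ndufc2, Ndufv2, Uqcrb, Uqcrh, Cox5a and Atp5s as higher, and Ndufv1, Sdhd, Uqcrc1, Cox6b2, Atp5a1 and Atp5d as lower. Ndufv2 held 359.0 to 452.5 CPM (median 417.4) in iHPC and 269.0 to 321.7 (290.2) in TLR7.1 Mono, a rise of 0.51 (SE 0.14, adjusted p = 0.0041). Its partner Ndufv1 held 21.1 to 156.3 (112.6) in iHPC and 186.5 to 275.6 in TLR7.1 Mono, which is a log2 difference of -1.20 (SE 0.35, adjusted p = 0.0069). The 2 flavoprotein subunits thus lay on opposite sides. Atp5s, known as coupling factor B and listed with complex V by its symbol, held 20.4 to 54.3 CPM (38.5) in iHPC, against 1.8 to 14.2 (8.1) in TLR7.1 Mono, without overlap, and rose by 2.22 (SE 0.59, adjusted p = 0.0033). In RPM it ranged from 0 to 56.0 CPM in WT and from 0 to 47.7 in TLR7.1 mice, and its rises there of 1.50 (SE 0.60, adjusted p = 0.04) and 1.76 (SE 0.60, adjusted p = 0.016) were lost on leaving out, for WT, any of mice 24028, 24117, 24304, 24308 or 24415 and, for TLR7.1, mouse 24308 or 24380, and for WT also with the mouse as a block. Uqcrc1 held 126.8 to 430.3 (306.1) in iHPC, below every Mono library, with a log2 fold change of -1.05 (SE 0.26, adjusted p = 0.0017) and lower values than Mono in 6 of 6 mice. Uqcrc2 differed: iHPC held 102.1 to 331.3 CPM (288.8), beside 279.2 to 322.6 (295.1) in TLR7.1 Mono, and -0.15 (SE 0.27) was not called. Sdhd fell by 0.77 (SE 0.17, adjusted p = 0.00042) and Sdhc by 0.49 (SE 0.18, adjusted p = 0.031), of which the Sdhc call was lost under the depth term and without any of 8 mice.

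Few members differed between the genotypes. In Mono no member was called between TLR7.1 and WT mice, where 2.1% of all genes were called, none had an unadjusted p under 0.05, and DESeq2 called 0. The median was 0.16, and 71 of 77 values were above 0, where the share of all genes above 0 is not given here. Within collection days the median difference was 0.05, -0.07 (1 WT mouse) and 0.33 on 13, 21 and 26 December. On these days 51, 31 and 72 members were above 0. Ndufb11, an accessory subunit of complex I, was the gene whose 6 TLR7.1 Mono libraries (111.5 to 129.3 CPM) lay above all 6 WT Mono libraries (80.4 to 111.2), with 0.27 (SE 0.17, adjusted p = 0.95), where 3.04% of all genes lay wholly above, and 0 members lay wholly below, where 1.13% of all genes did. Under the depth term 0 members were called in Mono and 2.6% of all genes. In RPM 2 members were higher in TLR7.1 mice and none lower, where 8.25% of all genes were called and 4.48% were higher. Sdhb rose by 0.61 (SE 0.17, adjusted p = 0.027), from 192.7 to 543.8 CPM (median 416.8) in WT to 514.8 to 700.5 (562.1) in TLR7.1 RPM. Atp5a1 rose by 0.47 (SE 0.11, adjusted p = 0.0086), from 481.7 to 725.6 (533.0) to 623.1 to 898.4 (798.2). The groups overlapped for both genes. The Sdhb call was lost on leaving out mouse 24068, 24214, 24308, 24323 or 24416, and both were lost when only the 2 RPM groups were fitted.

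Of the 77 members, 12 had an unadjusted p under 0.05 in that comparison, all with higher values in TLR7.1 RPM, and 8 of them were among the 17 core subunits. The share of all genes at that threshold is not given here, so the count says nothing of an excess. At the adjusted threshold 2.6% of members and 8.25% of all genes were called. With the library total as a term 8 members were higher, where 5.22% of all genes were: Ndufb9, Ndufb10, Ndufv3, Sdhb, Uqcr10, Atp5a1, Atp5d and Atp5j2, which were listed after their values were seen. Leaving out mouse 24117 gave 5 higher members and leaving out mouse 24380 gave 6, while 1 was left without mouse 24068, 24214, 24308 or 24416. Within collection days the median difference was 0.36 on 13 December, -0.33 on 21 December (1 WT mouse) and 0.21 on 26 December. The difference between the genotype effects in RPM and in Mono was called for 0 members (0.689% of all genes), also with DESeq2, and Atp5a1 (0.36, SE 0.16) was the only member with an unadjusted p under 0.05.

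Levels of different members can be set side by side per length. Per kilobase of transcript, Cox4i1 was the highest member in each group, at 558 CPM per kilobase in WT Mono, 603 in TLR7.1 Mono, 1193 in WT RPM, 1186 in TLR7.1 RPM and 836 in iHPC. These values are scaled to library totals that differ between the groups, and the Cox4i1 rises in RPM were not called under the depth term. Atp5g3 reached 352 in WT Mono and 684 in WT RPM, where Atp5g1 had 2.98 and 4.64, on a transcript model of 4715 bases that lowers its value. Ranked over the 77 genes, the per-kilobase profile of iHPC had a Spearman coefficient of 0.98 with TLR7.1 RPM and 0.89 with TLR7.1 Mono, beside 0.995 between the Mono groups and 0.988 between the RPM groups. The coefficients are descriptions across genes of summed libraries, which share gene lengths and differ in depth. Some members share sequence with copies elsewhere. Of their 50-base words, Atp5l shares 84.8%, Cox7c 53.0% and Atp5o 50.3%, and reads of these 3 may have been split or dropped, whereas 33 members share none.

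The mitochondrially encoded genes, given as a comparison only, were also lowest in Mono, highest in RPM and between them in iHPC by their summed level. Of the 13 protein genes, 7 were tested, since mt-Nd3, mt-Nd4l, mt-Co2, mt-Atp6 and mt-Atp8 were at 0 counts in all libraries and mt-Co3 had 24. All 7 were higher in RPM than in Mono, with medians of 1.48 in WT and 1.16 in TLR7.1 mice, and all 7 were higher in iHPC than in Mono (0.86). Against RPM, 0 of 7 were called in iHPC (-0.37). Under the depth term the same numbers were called, with medians of 0.80 and 0.74 in RPM of WT and TLR7.1 mice and 0.51 in iHPC against Mono, and -0.16 in iHPC against RPM. Their summed level was 3056 ± 343 CPM in WT Mono, 3091 ± 321 in TLR7.1 Mono, 8562 ± 2864 in WT RPM, 7272 ± 2331 in TLR7.1 RPM and 5599 ± 1583 in iHPC (SD, n = 6 each). Per unit of the nuclear members this was 0.216 ± 0.0132 in WT and 0.197 ± 0.00935 in TLR7.1 Mono, 0.401 ± 0.0818 in WT and 0.309 ± 0.0489 in TLR7.1 RPM, and 0.324 ± 0.0417 in iHPC (SD, n = 6 each). The iHPC range of this ratio, 0.275 to 0.385, lay above all Mono libraries (at most 0.234) and overlapped TLR7.1 RPM, at 0.229 to 0.363. The ratio moved with depth in WT RPM, TLR7.1 RPM and iHPC, where the shallowest library had the highest value and the deepest the lowest. In WT RPM it was 0.533 at 95002 counts and 0.275 at 1511480. The part of depth in the differences between populations was not tested.

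Other genes of the pathway are given from lists set by function, like the members with earlier results of these data known. The genes named are the largest called changes of each list or fixed regulators. The counts stand beside shares over all genes of 23.7% higher and 22.5% lower in WT RPM against Mono, 23.9% and 22.6% in TLR7.1 mice, 13.6% and 13.5% in iHPC against RPM and 19.3% and 19.4% in iHPC against Mono. With the depth term those shares were 17.9% and 14.5%, 20.8% and 16.4%, 13.9% and 15.2%, and 18.1% and 16.5%.

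Among 41 assembly factors, which build the complexes without staying in them, 14 were higher and 3 lower in WT RPM against Mono (median 0.16), 13 and 5 in TLR7.1 mice (0.31), 0 and 7 in iHPC against RPM (-0.17) and 8 and 6 in iHPC against Mono (0.11). The counts with the depth term were 10 and 2 (0.44), 12 and 2 (0.58), 0 and 7 (-0.22) and 7 and 5 (0.30). Ndufaf7, a methyltransferase for complex I, fell by 2.51 (SE 0.34, adjusted p = 2.4e-07) in WT RPM, by 2.89 (SE 0.34, adjusted p = 1.2e-08) in TLR7.1 RPM and by 2.06 (SE 0.31, adjusted p = 2.8e-06) in iHPC against Mono. Sdhaf4, which helps to assemble complex II, rose by 2.10 (SE 0.18, adjusted p = 1.9e-11) in WT and by 1.88 (SE 0.18, adjusted p = 1.4e-10) in TLR7.1 RPM and fell by 1.05 (SE 0.18, adjusted p = 2e-05) in iHPC against RPM. Both genes kept these calls under the depth term. Among 26 carriers and further subunits, 4 were higher and 5 lower, 7 and 4, 0 and 5, and 1 and 5 in the same 4 comparisons, and 5 and 1, 7 and 2, 0 and 7, and 1 and 5 under the depth term. Etfb, which feeds electrons from fatty acid oxidation into the chain, rose by 1.81 (SE 0.18) and 1.62 (SE 0.18) in RPM and fell by 1.36 (SE 0.18, adjusted p = 2.6e-07) in iHPC against RPM, all called also under the depth term.

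Among 20 genes of the citric acid cycle and pyruvate entry, 3 were higher and 8 lower in WT RPM against Mono (median -0.62), 2 and 4 in TLR7.1 mice (-0.34), 0 and 1 in iHPC against RPM (-0.05) and 1 and 6 in iHPC against Mono (-0.42). They were 1 and 0 (-0.22), 2 and 1 (-0.09), 0 and 1 (-0.15) and 1 and 4 (-0.20) under the depth term, so that none of the 8 falls in WT RPM was still called. Idh2, the mitochondrial NADP-dependent isocitrate dehydrogenase, was lower in iHPC than in RPM, at -0.98 (SE 0.30, adjusted p = 0.013), and than in Mono, at -1.50 (SE 0.30, adjusted p = 0.00012), with both calls kept under the depth term. Fumarase Fh1 was lower than in Mono in WT RPM (-1.22, SE 0.37), TLR7.1 RPM (-1.26, SE 0.35) and iHPC (-1.08, SE 0.35), and under the depth term had -0.38, -0.50 and -0.57, none of them called. Of 16 regulators of mitochondrial genes, 5 were higher and 1 lower in WT RPM and 7 and 2 in TLR7.1 RPM, with 1 and 0 in iHPC against RPM and 5 and 0 against Mono. In RPM of each genotype 3 and 0 were called with the depth term, and the iHPC counts were again 1 and 0, and 5 and 0. The coactivator Ppargc1b rose by 3.31 (SE 0.71, adjusted p = 0.00025) in WT and by 1.64 (SE 0.68, adjusted p = 0.046) in TLR7.1 RPM, and its partner receptor Esrra by 1.76 (SE 0.49) and 1.44 (SE 0.49), and by 1.94 (SE 0.48, adjusted p = 0.0015) in iHPC against Mono. Under the depth term Ppargc1b had 1.98, still called, in WT and 0.42, not called, in TLR7.1 RPM, and Esrra was called in iHPC against Mono (1.74) but not in RPM (1.33 and 1.10). Nrf1, Gabpa and Tfam, which encode factors for nuclear and mitochondrial promoters of the pathway, were called in none of the 7 comparisons.

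Ribosomal protein genes give a scale of other short, abundant transcripts. Of 77 cytosolic ribosomal protein genes, 45 were higher and 2 lower in WT RPM against Mono (median 1.01), 50 and 2 in TLR7.1 mice (1.01), and 42 and 2 in iHPC against Mono (0.77). The fit with the depth term had 16 and 2 (0.27), 33 and 2 (0.50) and 22 and 2 (0.47) in these comparisons. In iHPC against RPM only 2 were lower and 0 higher (-0.23), where 28 of 77 oxidative phosphorylation members and 13.5% of all genes were lower. Of 75 mitochondrial ribosomal protein genes, 19 were lower and 0 higher in that comparison (-0.39). Under the depth term the lower counts were 2 cytosolic genes (-0.07), 26 mitochondrial ones (-0.43) and 34 members. These medians and counts are set side by side without a test of their difference.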

How the data were processed

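The raw read counts per gene were deposited by the authors as 1 table of 30 libraries, and the unit is whole reads. HTSeq 0.4.1, TopHat, Bowtie, SAMtools, Picard, FastQC, CASAVA 1.8.2 and the build NCBIM37 are listed, with no role or order, by the submitters' processing notes. The annotation release and the strand setting are not stated there. Groups came from the sample titles, and every value column matched 1 sample (0 unmatched). Symbols and biotypes came from GENCODE M21 by Ensembl ID; 32938 IDs matched, holding 99.1% of counts, and pseudogenes such as Ndufs6b and Cox6c2 were left out. Members and lists were chosen with earlier results of these data known.

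All 30 libraries were fitted with edgeR 4.0.16 (filterByExpr, TMM, glmQLFit, glmQLFTest; R 4.3.3, limma 3.58.1) with 1 coefficient per group, and p-values were adjusted over 11030 genes at a threshold of 0.05. Levels are TMM-normalised CPM, with a pseudocount of 1 CPM for differences within a mouse or day. The code was tested on simulated data. Named members are the 5 largest rises and falls called in a comparison with a mean of at least 20 CPM in the higher group, plus the core and isoform lists, apart from 1 member not reported here; genes outside the members are named when called and among the 2 largest changes of their list, or as 6 fixed regulators. Same-numbered libraries come from 1 mouse; over 24 such pairs residual correlations ran from -0.077 to 0.209, with 3 over 0.1. Depth ranged from 95002 to 1932427 counts, and intervals cover counting error only.

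Alternatives were DESeq2 1.42.0, library totals in place of TMM, no filter, only the groups compared, the mouse as block, collection date as a term, thinning, and leaving out libraries under 300000 counts or each mouse. The library total as a term, a window of 900000 to 1300000 counts and the iHPC library of mouse 24261 alone were added after the data were seen.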

Additional observations from a re-analysis of the deposited data

Results flagged for a closer look

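For the summed levels and the 40 named members, 234 group values were examined for a library that stands apart from the other 5 of its group by Dixon's ratio, and 49 did so (20.9%), where chance gives about 1 in 20. The values are in normalised CPM, each followed by the nearest other library of the group.

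The iHPC library of mouse 24380, with 292507 counts the shallowest of its group, accounted for 25 of the 49. It was the highest iHPC library for complex IV summed (4501, next 2567), Atp5e (574, next 218), Atp5g3 (619.8, next 389.9), Atp5k (134, next 61.3), Atp5mpl (394, next 208), Cox4i1 (1109, next 639.9), Cox6a1 (778, next 367), Cox6b1 (539, next 315) and Cox7a2 (472, next 248). It was also the highest for Cox7a2l (268, next 148), Cox8a (309.9, next 229), Ndufa2 (673, next 266), Ndufa5 (384, next 167), Ndufb2 (116, next 58.9), Ndufc2 (585, next 318), Uqcr10 (401, next 236) and Uqcrh (806, next 284). It was the lowest iHPC library for complex II summed (761, next 1116), Atp5a1 (486, next 592), Atp5c1 (102, next 320.0), Atp5d (158, next 202), Ndufs3 (31.7, next 63.2), Ndufs8 (116, next 331), Sdhc (81.0, next 144) and Uqcrc2 (102, next 258). Without mouse 24380 the iHPC against RPM comparison had 43 lower members and 1 higher.

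The TLR7.1 Mono library of mouse 24380, again the shallowest of its group with 1157446 counts, was the highest for all members summed (17873, next 15808), complex III summed (2262, next 1958), complex IV summed (2264, next 1926), complex V summed (4483, next 3888), Atp5a1 (941, next 793), Atp5b (1081, next 898), Atp5d (317, next 285), Cox4i1 (588, next 459), Cox6a1 (342, next 269.7), Cox6b1 (318, next 238), Ndufs1 (213, next 170.2), Uqcrc1 (756, next 628) and Uqcrfs1 (362, next 305). In TLR7.1 RPM the library of that mouse was the lowest for Atp5c1 (167, next 306) and the highest for Atp5d (498, next 318).

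The remaining values were scattered. The TLR7.1 Mono library of mouse 24068 was the highest for Ndufa5 (93.2, next 79.4), and the iHPC library of mouse 24261 the lowest for Atp5g1 (13.0, next 18.9). Among WT Mono libraries, mouse 24323 was the highest for Cox4i2 (0.836, next 0.0), mouse 24416 for Cox6b2 (36.3, next 21.6) and mouse 24117 for Ndufv2 (286, next 249.7). Among WT RPM libraries, mouse 24117 was the highest for Cox4i2 (42.5, next 13.9) and Uqcrc1 (353, next 193), mouse 24323 was the highest for Atp5g1 (42.8, next 22.5) and mouse 24416 the lowest for Ndufv2 (152, next 312).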

How the results depend on the processing

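No named member changed sign in a value called with or without the alternative. Of 4669 values of named members under the alternatives, 182 changed sign, and none of these was called in either fit. Of the results for single named members, 4341 kept their side of the threshold, 258 called values were no longer called and 70 were newly called. In WT RPM against Mono (61 called) there were 26 with the library total as a term, of which 25 were among the 61. In TLR7.1 RPM against Mono the window of 900000 to 1300000 counts left 4 of 56, with 1 Mono library that is assumed to vary like the other groups. For iHPC against RPM (28 called) there were 15 when only those groups were fitted, 44 without libraries under 300000 counts, 8 in the window and 0 with the iHPC library of mouse 24261 alone, a single library assumed to vary like the other groups. For iHPC against Mono (31 called) there were 18 without a filter, 47 with only those groups, 20 after thinning, 18 without libraries under 300000 counts, 13 with the library total, 2 in the window (again against that 1 Mono library) and 0 with that iHPC library alone. For TLR7.1 against WT Mono (0 called) there was 1 with only those groups. For TLR7.1 against WT RPM (2 called) there were 4 with DESeq2, 0 with only those groups, 0 after thinning, 6 without libraries under 300000 counts and 8 with the library total. The cause was not tested. With DESeq2 size factors the summed level was 13998 in TLR7.1 Mono and 12530 in WT Mono.

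Leaving out 1 mouse at a time gave 54 to 62 called members in WT RPM against Mono, 54 to 58 in TLR7.1 mice, 16 (without mouse 24068) to 44 (without 24380) in iHPC against RPM, 12 (without 24308) to 35 (without 24117) in iHPC against Mono and 1 to 6 (without 24380) in TLR7.1 against WT RPM. TLR7.1 against WT Mono and the difference of the genotype effects stayed at 0. With the mouse as replicate block 63, 56, 37 and 34 members were called in the 4 comparisons between populations and 0 for the difference of the genotype effects; the genotype comparisons within 1 population could not be blocked, since each mouse gave 1 library there. Thinned counts and the libraries over 300000 counts tested 67 and 76 members. Depth limits the low members most: Cox6b2, Atp5s and Atp5l are listed at 0 in some RPM or iHPC libraries. Cox4i2 had a count in 1 WT Mono library, 2 TLR7.1 Mono libraries and no iHPC library. It was at 0 also in the deepest WT Mono and iHPC libraries.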
